A study of Homo sapiens with 4 samples.

Results

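The third bases of codons, called wobble bases, were examined in the 12 mRNAs of the heavy-strand transcript, at adenine and at cytosine separately. Codons were counted from the start of each reading frame, and the stretches where ATP8 overlaps ATP6 and ND4L overlaps ND4 were left out. Of 3584 wobble bases, 2860 were A or C (1310 A and 1550 C), among 10265 A or C that the heavy-strand data hold in all. The rule used sequence and frame alone, with no measured value. All 12 frames opened with a start codon of the mitochondrial code (AUG, AUA or AUU) and held 0 internal stop codons.

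Dimethyl sulfate (DMS) was used to probe RNA folding inside isolated mitochondria of HEK-293T, an established cell line derived from human embryonic kidney. Wild-type mitochondria gave 2 libraries and mitochondria of the LRPPRC knockout gave 2, each labelled as a biological replicate. All 4 were treated after isolation with 1% DMS for 5 min at 37 °C and reverse transcribed with the TGIRT-III enzyme, so both groups share the isolation and the agent. The design asks how mitochondrial mRNAs fold in the organelle and, by the labels, how this differs without LRPPRC. Whether the knockout line is 1 clone is not given in the sources used here, and the loss of LRPPRC was not checked, since its transcript is nuclear and was not analysed here. An untreated library was not analysed here.

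DMS methylates adenine and cytosine whose Watson-Crick face is free, and the reverse transcriptase then places a wrong base in the cDNA opposite the methylated one. The value at each position is a mismatch fraction, printed here as a percent of reads. At the wobble base of a codon, in mitochondria, a single tRNA reads all the codons of a family in which this base is free, so the base carries little or no coding information and can be shaped by RNA folding and by mutation. In structure probing of cytosolic mRNAs of other organisms, signals that repeat with the codon have been described, which makes the wobble base a natural unit to examine. LRPPRC binds mitochondrial mRNAs with its partner SLIRP and is known to be needed for their stability and their polyadenylation.

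Sequences are shown for the third bases that mark the ends of the range, with 3 codons on either side of the codon itself. They come from the base column of the heavy-strand data, which has the sense of the mRNA, and the capital letter marks the third base. Positions follow that column, which in these mRNAs counts 1 less than the mitochondrial sequence of GRCh38.p14, and the build itself is not named in the sources used here. All lie in coding sequence, and mitochondrial genes have no introns. The most reactive wobble A in wild type was that of an alanine codon of ND5 at chrMT:13698-13718, and the most reactive wobble C were 2 of ND2, in a leucine codon at chrMT:5204-5224 and an asparagine codon at chrMT:5324-5344.
ND5 position 13709: aaacgcctggcAgccggaagc
ND2 position 5215: tccaccctcctCtccctagga
ND2 position 5335: accctccttaaCctctacttc

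The third bases that rose most in the knockout were 2 A of leucine codons, in ND4L at chrMT:10649-10669 and in COX3 at chrMT:9287-9307, and 2 C of COX1, in a glycine codon at chrMT:7151-7171 and an alanine codon at chrMT:7121-7141.
ND4L position 10660: attgccatactAgtctttgcc
COX3 position 9298: acctccggcctAgccatgtga
COX1 position 7162: atattcatcggCgtaaatcta
COX1 position 7132: caaacctacgcCaaaatccat

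Those that fell most were an A of a valine codon and an A of a threonine codon of ND4, at chrMT:11536-11556 and chrMT:11935-11955, and 2 C of AGC serine codons, in ND4 at chrMT:11623-11643 and in ATP6 at chrMT:9171-9191.
ND4 position 11547: cccttccttgtActatcccta
ND4 position 11946: ctcctacttacAggactcaac
ND4 position 11634: tcttcaatcagCcacatagcc
ATP6 position 9182: cttctagtaagCctctacctg

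Wobble bases were the most A- and C-rich of the codon. A or C made up 79.8% of wobble bases, against 59.7% of first bases (2145 of 3590) and 47.9% of second bases (1717 of 3587). C alone held 43.2% of wobble bases and G only 4.91%. The probe therefore reads more of the wobble bases than of the bases that fix the amino acid. Of the 2860 members, 5 had a mean fraction over 0.3 in the 4 libraries and were left out, the lowest of them at 94.1%. The highest member kept stood at 15.9% over the 4 libraries. Levels below are over the remaining 1308 A and 1547 C.

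At A, the third base had a slightly higher mean fraction than the others. Its mean mismatch fraction was 2.96% and 2.93% in the wild-type libraries and 2.15% and 2.13% in the knockout libraries. In wild type the mean was 2.94% ± 0.0200 (SD, n = 2), against 2.86% ± 0.0118 at first and 2.88% ± 0.00302 at second A. The difference of wobble minus first A was 0.0841 ± 0.00814 percentage points in wild type against 0.0393 ± 0.00378 in the knockout. It was above 0 in all 4 libraries, and so was the difference of wobble minus second A, which was 0.0638 ± 0.0169 points in wild type against 0.0178 ± 0.00576 in the knockout.

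At C, the third base lay between the others. Its mean was 4.15% and 4.10% in the wild-type libraries and 2.43% and 2.44% in the knockout libraries. The wild-type mean of 4.13% ± 0.0354 stood 0.242 ± 0.00555 points above first C, and its difference from second C was -0.250 ± 0.00700 points. The order of first, wobble and second C from low to high held in each of the 4 libraries. In the knockout the same differences were 0.153 ± 0.00518 and -0.182 ± 3.9e-05 points.

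**Figure D1:**
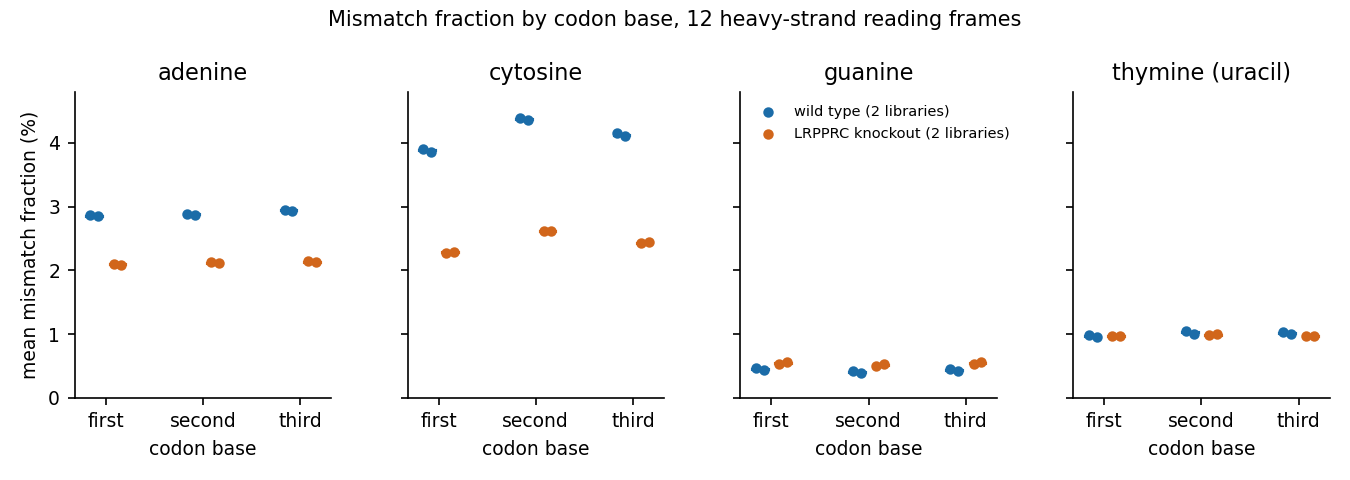
Mean mismatch fraction in percent (vertical axis) at first, second and wobble codon bases for each base, with 1 point per library and a bar at the mean of 2 libraries. Adenine is nearly level across the codon and slightly highest at the third base, cytosine is highest at the second base, and both are lower in the knockout, while guanine and thymine reach at most 1.05%.

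G and T, where DMS leaves no mark on the pairing face, gave the background in the same libraries. Wobble G had 0.432% ± 0.0178 in wild type against 0.546% ± 0.0313 in the knockout. Wobble T had 1.02% ± 0.0234 and 0.971% ± 0.00272. The G background was thus higher in the knockout, where A and C were lower, and its part in the changes below was not tested. Wobble minus first T was 0.0456 ± 0.00031 points in wild type against -0.0011 ± 0.00082 in the knockout. Wobble minus second T was -0.015 ± 0.0068 and -0.018 ± 0.0044. At G, wobble minus first was -0.020 ± 0.010 and 0.0022 ± 0.0051, and wobble minus second 0.025 ± 0.0053 and 0.034 ± 0.010. The part of the background in the codon-base differences at A and C was not tested. The files hold fractions without read numbers, so depth is unknown and no counting interval can be given. Each fraction averages over all molecules of a transcript, so fewer reactive molecules and a weaker reaction per molecule cannot be told apart.

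Single wobble bases varied far more than the codon bases did. In wild type wobble A had a median of 3.01%, with 10% of members under 1.32% and 10% over 4.31%. Wobble C had a median of 4.16%, with 10% under 1.47% and 10% over 6.22%. The lowest wobble A had 0.039% and the highest, ND5 position 13709 in the sequence shown first, had 19.5% in both wild-type libraries against 10.7% and 10.4% without LRPPRC. ND2 position 5215 had 23.2% and 22.9% in wild type against 4.06% and 4.01% in the knockout. ND2 position 5335 had 21.8% and 22.5% against 4.67% and 4.86%. At all 3 positions every wild-type library was above both knockout libraries. The other bases among the 3 highest were ND5 position 12881, a C of a phenylalanine codon with 20.0% and 20.1% against 11.8% and 11.7%, and, at A, ND4 position 11547 and ND2 position 5155. The latter, in a leucine codon, had 8.65% and 8.54% against 3.23% and 3.28%, again with no overlap.

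Whether wobble bases differ from the rest of the codon within each mRNA was asked with a contrast, the mean of log2(fraction + 0.001) at wobble bases minus the mean of the same at first and second bases. Because it is taken within a library, it needs no scaling between libraries. As the equal-weight mean of the 12 mRNAs it was -0.0061 ± 0.0072 for A and -0.036 ± 0.0032 for C in wild type (log2, SD, n = 2). In the knockout it was -0.010 ± 0.0033 for A and -0.019 ± 0.0015 for C. The A contrast of wild type lay within its spread of 0, and both the A and the C contrast were below 0 in all 4 libraries. For A this sign is opposite to that of the differences in mean fraction above.

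The mRNAs differed among themselves more than this mean differed from 0. For A the contrast was above 0 in all 4 libraries in 6 mRNAs and below 0 in all 4 in the other 6, with an SD over mRNAs of 0.11 in wild type. For C it was above 0 in 4, below 0 in 5 and of mixed sign in 3, with an SD of 0.097. The median SD between wild-type libraries was 0.0051 for A and 0.0039 for C. Apart from the 3 mixed cases at C, the sign of the third-base contrast repeated between libraries within an mRNA, and it differed across mRNAs. Its 2 parts were more uniform at C. In wild type, wobble minus second C was below 0 in 11 of 12 mRNAs, and wobble minus first C was above 0 in 9. At A each part was above 0 in 6 mRNAs and below 0 in 6.

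At A the highest wild-type contrasts belonged to ATP6, a subunit of the ATP synthase, and ND3, a subunit of complex I. ATP6 had 0.15 and 0.14 in wild type against 0.088 and 0.081 in the knockout (77 wobble A). ND3 had 0.13 and 0.11 in wild type against 0.15 and 0.10 in the knockout (49 wobble A), where the groups overlap. The lowest belonged to ND4L, a small complex I subunit, and ATP8, the small partner of ATP6. ND4L had -0.25 in both wild-type libraries against -0.17 and -0.15 in the knockout (36 wobble A). ATP8 had -0.13 and -0.15 in wild type and -0.18 in both knockout libraries (24 wobble A).

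At C, the highest were the complex I subunits ND5 and ND2. ND5 had 0.073 and 0.072 in wild type against 0.060 and 0.055 in the knockout (275 wobble C), and ND2 had 0.068 and 0.059 against 0.057 and 0.053 (143 wobble C). The lowest were ND3 and COX2, a subunit of cytochrome c oxidase that binds copper. ND3 had -0.26 and -0.25 in wild type against -0.21 and -0.23 in the knockout (44 wobble C). COX2 had -0.13 and -0.14 against -0.13 and -0.12 (93 wobble C). ND3 was thus among the highest at A and the lowest at C.

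**Figure D2:**
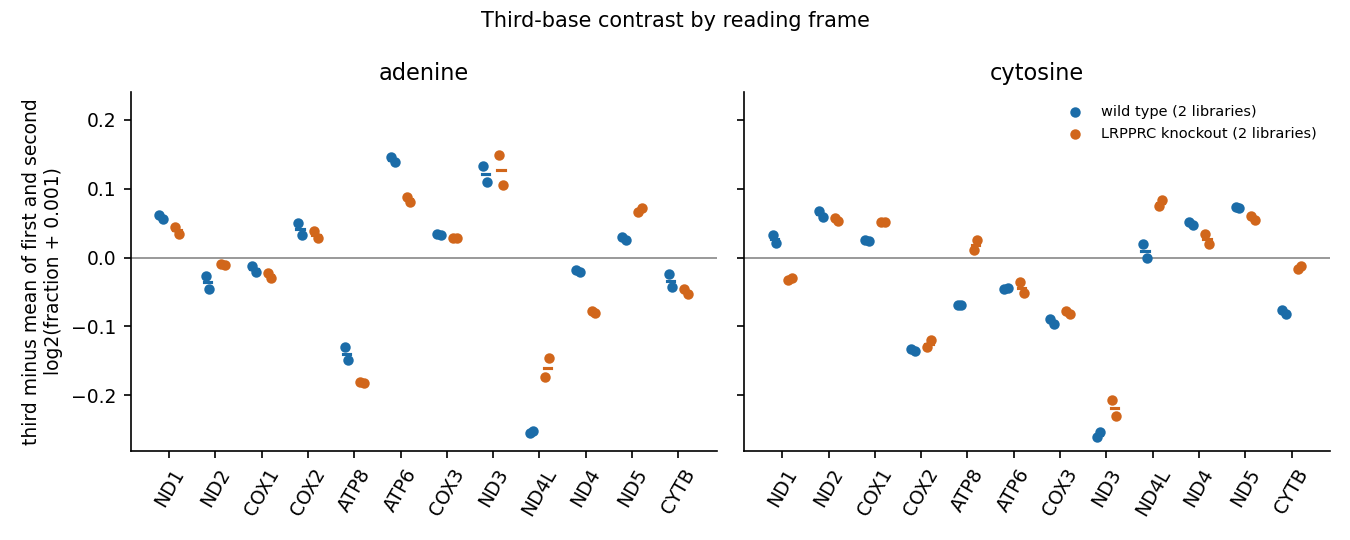
Third-base contrast (vertical axis, log2 units) of the 12 mRNAs in genome order for adenine and cytosine, with 1 point per library, bars at group means and a line at 0. Adenine runs from -0.25 in ND4L to 0.14 in ATP6 and cytosine from -0.26 in ND3 to 0.073 in ND5 in wild type, and points of 1 group lie closer together than the mRNAs do.

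RNAs without a reading frame, or read from the other strand, gave the comparison. When the rRNAs RNR1 and RNR2 were cut into triplets from their first base, the difference between phases had a median absolute size of 0.14 in wild type over 12 pairs, and the largest was 0.48. The 48 third-base pairs of the mRNAs (wobble minus first and wobble minus second, 2 bases, 12 mRNAs) had a median of 0.086 and a largest of 0.36. In ND6, the mRNA of the other strand, the 6 pairs had a median of 0.16. Differences as large as those at wobble bases were thus present between positions that share no codon.

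The contrast also moved between wild type and knockout in part of the mRNAs. By limma with Benjamini-Hochberg adjustment over all 90 pairs of the table, 43.3% of pairs were called at 0.05, and of the 48 third-base pairs 24 were called, 12 higher and 12 lower in the knockout. Among second minus first pairs 8 of 24 were called, among rRNA phases 5 of 12 and in ND6 2 of 6. The share was 50.0% at wobble bases, 33.3% among second minus first pairs, 41.7% among rRNA phases and 33.3% in ND6. Wobble pairs are 48 of the 90, so the share of the whole table is not independent of theirs. Whether these shares differ was not tested. Without wild-type replicate 1 the third-base calls were 7 higher and 5 lower, without wild-type replicate 2 they were 5 and 5, and without knockout replicate 2 they were 11 and 6.

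At A the contrast rose in ND4L, by 0.10 ± 0.016 against first bases and 0.085 ± 0.0097 against second bases (limma SE, adjusted p = 0.0081 and 0.0029). It rose in ND5, by 0.042 ± 0.0066 and 0.039 ± 0.0075 (limma adjusted p = 0.0083 and 0.016). It fell in ND4, a core subunit of complex I, with changes of -0.048 ± 0.0064 and -0.070 ± 0.0072 (limma adjusted p = 0.0054 and 0.0023), and in ATP6, with -0.054 ± 0.0090 and -0.062 ± 0.0092 (limma adjusted p = 0.0097 and 0.0074). In each of the 4 mRNAs the wild-type and knockout libraries did not overlap. With 1 library left out its group has 1, which the fit takes to vary like the other group. The ND4 calls held in each such fit. Without wild-type replicate 1 or 2, ND4L and ATP6 against first bases lost their calls (limma adjusted p = 0.081 to 0.11) at changes of like size, 0.091 and 0.11 in ND4L and -0.058 and -0.050 in ATP6, and so did both ND5 pairs (adjusted p = 0.051 to 0.087, changes of 0.034 to 0.044). The ND4L pair against second bases was lost without wild-type replicate 2 (0.057), and the ND5 pair against second bases also without knockout replicate 2 (0.061).

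At C the contrast rose in ATP8 against both other bases, from -0.068 in each wild-type library to 0.011 and 0.025 in the knockout. The changes were 0.096 ± 0.0082 and 0.076 ± 0.0082 (limma adjusted p = 0.0014 and 0.0025), with 19 wobble C. In ND4L the pair with second bases rose by 0.15 ± 0.011 (limma adjusted p = 0.00089), while the pair with first bases had -0.014 ± 0.010 (limma adjusted p = 0.28). In ND1, another complex I subunit, the pair with first bases fell, with -0.094 ± 0.0069 (limma adjusted p = 0.00089), and the pair with second bases had -0.022 ± 0.0085 (limma adjusted p = 0.093). In ND4 the pair with first bases had -0.027 ± 0.0065 (limma adjusted p = 0.031), a call lost when any 1 of the 4 libraries was left out (0.083 to 0.12) and with pseudocount 0.0001 or an upper limit of 0.1 (0.051 and 0.067). ND4 against second bases had -0.018 ± 0.011 (limma adjusted p = 0.23).

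Wobble bases sat in another surrounding than the other codon bases. The base before a wobble A was U in 43.0% of cases, against 18.3% at first and 18.2% at second A. The base after it was G in 26.8%, against 4.30% and 4.70%. It was A in 31.0%, against 21.9% and 32.6%, so close to second A. By RNAplfold, which predicts from sequence alone how often a base is unpaired, wobble A had a mean unpaired probability of 0.668, against 0.796 at first and 0.757 at second A. Wobble C had 0.718, against 0.764 and 0.731. By this prediction A and C were paired more often at wobble bases than at the other codon bases, and 46.4% of wobble A lay over a probability of 0.8, against 65.8% of first A.

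Comparing like with like changed the contrast. The matched contrasts also pooled positions over the 12 mRNAs. Pooling without matching gave 0.0083 in wild type and 0.0028 in the knockout for A, and -0.0115 and -0.0016 for C. Within 5 bins of unpaired probability the A contrast was 0.10 ± 0.0061 in wild type against 0.073 ± 0.0013 in the knockout (log2, SD, n = 2), above 0 in all 4 libraries. The C contrast turned from below to above 0, at 0.037 ± 0.0031 and 0.036 ± 0.0018. Within classes of the same bases before and after, it was 0.044 ± 0.00060 and 0.0092 ± 0.00088 for A, over 915 wobble A, and -0.073 ± 0.0043 and -0.069 ± 0.00055 for C. The sign at C thus depended on which feature was held equal.

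The base before a C went with its level more than its place in the codon did. Wobble C after A had 5.28% and 5.24% in wild type and 3.24% in both knockout libraries (349 positions). Wobble C after C had 3.33% and 3.26% against 1.86% in both (492 positions), and wobble C after G had 3.39% and 3.36% against 1.93% and 1.94% (165 positions). C after A was the highest class and C after C the lowest by mean fraction at first, second and wobble bases in each group, with ratios of 1.63, 1.63 and 1.60 in wild type, and of 1.79, 1.77 and 1.74 without LRPPRC. At first and second C after A, the wild-type means were 5.08% and 5.59%.

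Shares of the variance across positions put this in numbers, as a description over neighbouring positions that are not independent. At C the codon base went with 0.720% to 1.35% of the variance of the log2 values in the 4 libraries, over 3562 positions. Within wobble C alone the base before it went with 12.8% to 21.3%, and the bin of unpaired probability with 33.0% to 44.3%. At A the codon base went with at most 0.0102%, over 3149 positions, and within wobble A the base before it with 1.31% to 2.50% and the bin of unpaired probability with 13.7% to 14.8%. Wobble C predicted to be unpaired (over 0.8) had 4.87% ± 0.0447 in wild type, against 1.73% ± 0.0138 for those under 0.2. For wobble A the same means were 3.18% ± 0.0171 and 1.80% ± 0.0181.

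At A the base after went with a wider range at first than at wobble bases, 1.49-fold against 1.25-fold from the lowest to the highest class in wild type. Wobble A before A was lowest, at 2.61% ± 0.00568 in wild type, and wobble A before C highest, at 3.27% ± 0.0278. First A before G reached 3.73% ± 0.0238 over 49 positions, while wobble A before G had 3.00% ± 0.0297 over 350 positions. RNAplfold gave these first A a mean unpaired probability of 0.584 and these wobble A 0.425.

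**Figure D3:**
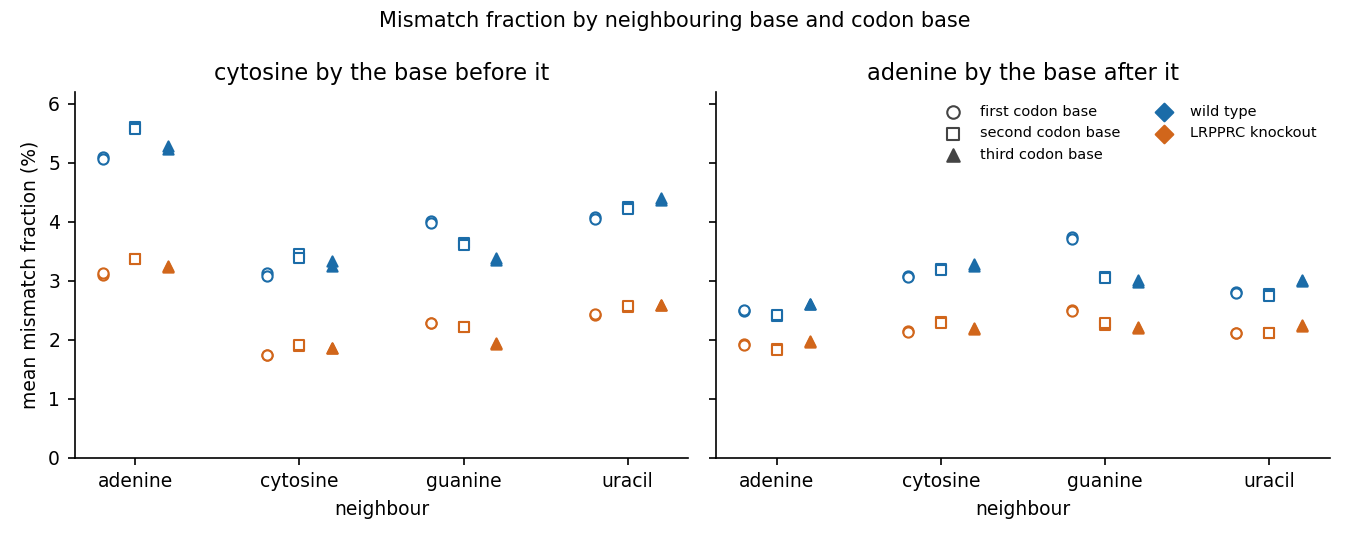
Mean mismatch fraction in percent (vertical axis) of cytosine by the base before it and of adenine by the base after it, with 1 point per library and the codon base by shape (filled triangles, wobble base). Cytosine after adenine is highest at each codon base in both groups, and adenine before adenine is lowest.

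Codons ranked by their wobble C followed that neighbour in part. The highest among codons with at least 20 wobble bases were AAC of asparagine (5.53% ± 0.0419 in wild type, 130 codons), CAC of histidine (5.46% ± 0.0249, 79 codons) and UAC of tyrosine (5.19% ± 0.00872, 89 codons), all with A at the second base. The lowest were GCC of alanine (2.41% ± 0.0833, 122 codons), GGC of glycine (2.82% ± 0.0521, 86 codons) and CCC of proline (3.29% ± 0.0514, 117 codons). Across 15 such codons the wild-type range was 2.41% to 5.53% and the knockout range 1.37% to 3.42%. GAC of aspartate, also with A at the second base, had 4.39%, below AUC (4.70%), CUC (4.51%) and AGC (4.44%). In AUC, CUC and AGC the wobble C follows U or G, and these codons were named after their values were seen. The means of AGC, CUC and AAC include ATP6 position 9182 (13.7%), ND2 position 5215 (23.1%) and ND2 position 5335 (22.2%). The order without these positions was not computed. The order of codons was alike in both groups, with a Spearman rho of 0.946 between group means over these codons, which share libraries and neighbour bases.

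At wobble A the codon range was narrower. GCA of alanine was highest (3.27% ± 0.00247, 79 codons), followed by AUA of methionine (3.18% ± 0.0351, 164 codons) and CAA of glutamine (3.14% ± 0.0147, 80 codons). UUA of leucine was lowest (2.00% ± 0.0956, 64 codons), then GGA of glycine (2.18% ± 0.0371, 61 codons) and CCA of proline (2.27% ± 0.00650, 51 codons). The gap between AUA and CAA was close to the SD of AUA, while that between UUA and GCA was far above both SDs. The GCA mean includes ND5 position 13709, at 19.5% in wild type, so its rank above AUA and CAA may rest on that 1 position. The order without it was not computed. With that position included, alanine codons held the highest wobble A by these means, and they held the lowest wobble C.

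Whether the third base is free, as in 4-fold degenerate families, or fixed to a purine or pyrimidine, as in 2-fold ones, went with a difference at C. Wobble C of 4-fold families had 3.51% ± 0.0484 in wild type, against 4.82% ± 0.0210 in 2-fold families. On the log2 scale 4-fold minus 2-fold was -0.55 ± 0.014 in wild type against -0.58 ± 0.0039 in the knockout. Codons with A at the second base are all 2-fold and those with C are all 4-fold, so the class and the base before the third base overlap. Among wobble C after U the difference was -0.11 ± 0.0080 in wild type and -0.21 ± 0.0015 without LRPPRC. Among those after G it was -0.70 ± 0.019 and -0.22 ± 0.0035, so the like values over all C cover changes in opposite directions. For A it was -0.037 ± 0.0035 in wild type against 0.016 ± 0.0075 in the knockout over all families. After G the A difference was -0.54 ± 0.0061 and -0.46 ± 0.014, and after U 0.054 ± 0.017 and 0.053 ± 0.0079, of opposite sign.

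Within a 4-fold family A and C at the third base follow the same 2 bases, so their ratio compares like with like before the base. In wild type C was above A in 7 of 8 families, from a ratio of 1.20 ± 0.0089 in threonine to 1.52 ± 0.0096 in arginine. Alanine was the exception, at 0.737 ± 0.0249. In the knockout C was above A in 4 of 8, and the ratio was lower in all 8 families with no overlap of libraries. Threonine went to 0.911 ± 0.0087, serine (UCN) from 1.23 ± 0.0036 to 0.869 ± 0.0066, and valine from 1.21 ± 0.014 to 0.966 ± 0.0090. Glycine moved least, from 1.30 ± 0.0018 to 1.20 ± 0.0019. C also fell more than A at first and second codon bases. The mean log2 changes there were -0.71 and -0.68 at C, against -0.40 and -0.40 at A.

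**Figure D4:**
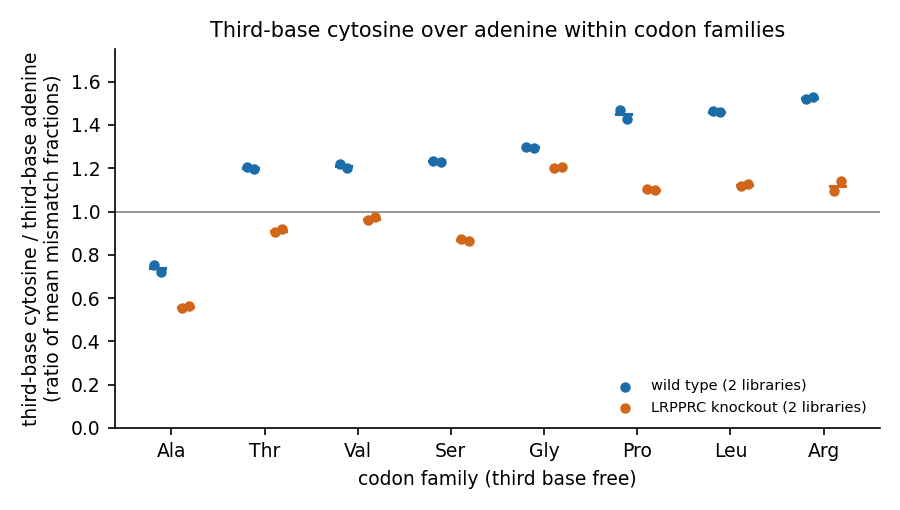
Ratio of mean mismatch fractions of third-base cytosine over third-base adenine (vertical axis) in the 8 codon families whose wobble base is free, with 1 point per library, bars at group means and a line at 1. All 8 families are lower in the knockout, and threonine, valine and serine pass from above to below 1.

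The knockout had lower fractions at wobble bases than wild type, more so at C. The mean change of log2(fraction + 0.001) was -0.41 at wobble A and -0.69 at wobble C, against -0.40 and -0.71 at first and -0.40 and -0.68 at second bases. The drop in level was thus of nearly the same size at each codon base. The library medians over all tested A and C of the heavy strand differed by -0.63 (knockout minus wild type), so calls are given both without and with centring on them. With 2 libraries against 2 an exact permutation test of 1 value cannot go below p = 0.333.

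Without centring, limma with adjusted p under 0.05 called 1075 of 1298 wobble A lower and 47 higher, where 73.8% of all A in the heavy-strand data were lower and 4.56% higher. Of 1544 wobble C, 1390 were lower and 60 higher, against 82.7% and 4.90% of all C. The other codon bases had close shares: 85.4% of first A and 83.4% of second A were lower, and 82.8% of wobble A. At C, 90.5% of first and 89.4% of second bases were lower, with the share of wobble C between them. The fractions of the 2 groups did not overlap at 1234 wobble A (95.1%) and 1513 wobble C (98.0%), against 92.1% of all tested A and C. With centring 858 wobble A were called higher and 153 lower (57.2% and 13.2% of all A), and 527 wobble C higher and 655 lower (32.8% and 39.8% of all C). First and second bases had close shares: 66.5% and 64.0% of them were higher at A, and 66.1% of wobble A. Centring raises every change by the same amount. The bases called by both scalings were therefore those higher without centring (47 A and 60 C) and those lower with it (153 A and 655 C). This overlap follows from the scaling and adds no evidence.

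By mRNA, wobble C fell most in ND4, from 4.67% and 4.62% in wild type to 2.09% and 2.07% in the knockout (log2 change -1.07). It fell least in COX1, the catalytic subunit of cytochrome c oxidase, from 3.61% and 3.55% to 2.43% and 2.45% (-0.47). Wobble A also fell most in ND4, from 3.05% and 3.03% to 1.74% and 1.72% (-0.73), and least in COX2, from 2.89% and 2.86% to 2.35% and 2.34% (-0.24). In each of the 12 mRNAs and for both bases every wild-type library lay above every knockout library. These ranks are a description of uncentred levels, named after the values were seen.

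**Figure D5:**
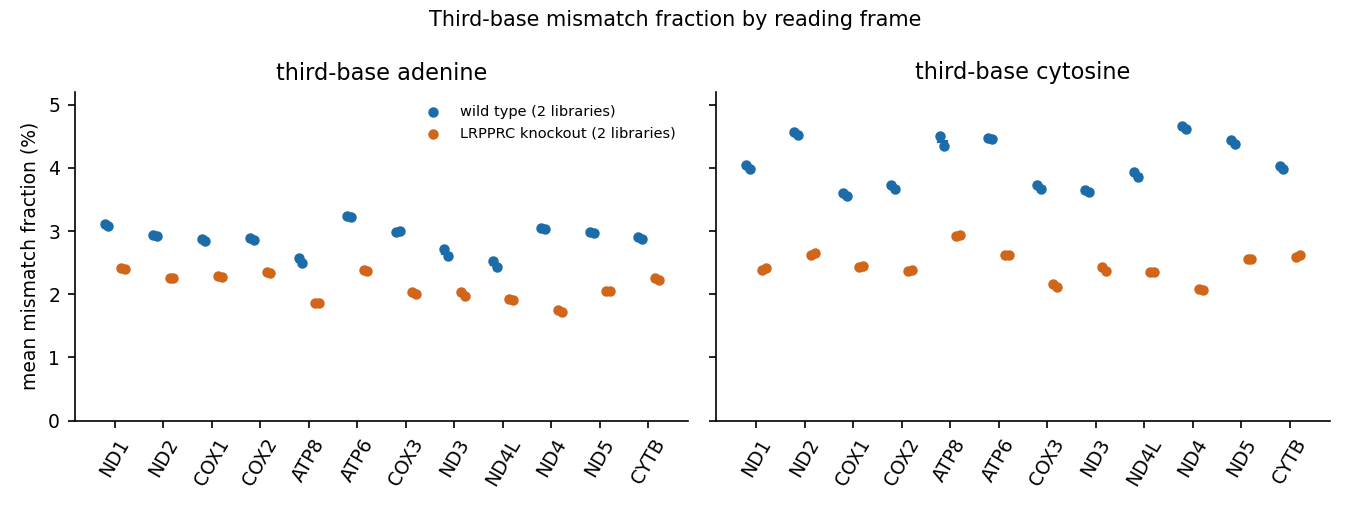
Mean mismatch fraction in percent (vertical axis) at third-base adenine and cytosine of the 12 mRNAs in genome order, with 1 point per library and bars at group means. All 12 mRNAs are lower in the knockout at both bases, and ND4 has the widest gap, from 4.64% to 2.08% at cytosine.

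The base after a wobble C also went with the size of its fall. Wobble C before C had a mean log2 change of -0.86 (498 positions) and wobble C before G -0.47 (210 positions). The same pair of values was -0.88 and -0.63 at first C and -0.80 and -0.47 at second C, so it was shared by the codon bases. Wobble A before C had -0.54 (299 positions), against -0.36 to -0.38 before the other bases.

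In the codon table, 94.9% of its 78 rows of codon and codon base were called by limma with centring. Wobble A was higher in 14 of 14 codons, with changes from 0.14 in CAA to 0.34 in UUA, where 64.1% of all rows, A and C together, were higher. A was likewise higher in 11 of 12 codons at the first base and 12 of 12 at the second. Wobble C was higher in 2 of 16 codons and lower in 11 (30.8% of all rows were lower). The largest fall at wobble C was in AGC of serine, at -0.35 ± 0.011 (limma SE, 37 codons), and the largest rise in GGC of glycine, at 0.34 ± 0.017 (86 codons). With quantile normalization the GGC change was 0.043 (limma adjusted p = 0.18), no longer called, and the AGC change -0.37. Without centring all 14 and all 16 were lower, as were 100% of rows, and AGC then had -0.98 and GGC -0.29. Quantile normalization left 9 of 14 wobble A codons higher, and 3 wobble C codons higher and 10 lower, against 50.0% and 34.6% of all rows. The codon signs above are therefore relative to the shift of the library medians.

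Single wobble bases moved far beyond these means. ND4L position 10660 had 0.507% and 0.481% in wild type against 0.921% and 0.912% in the knockout. COX3 position 9298 had 0.795% and 0.724% against 1.33% and 1.20%. Both are A of CUA leucine codons followed by G, and so is the other of the 3 A that rose most, ND2 position 5221, with 1.21% and 1.17% against 1.88% in both. In log2 terms without centring these rose by 0.78, 0.67 and 0.62 (limma adjusted p = 0.0011, 0.0022 and 0.00040), and with centring by 1.41, 1.30 and 1.25. At all 3 both knockout libraries were above both wild-type libraries, against the general fall. In wild type, positions 10660 and 9298 lay between the background means of wobble G (0.432%) and wobble T (1.02%). The part of the background in these rises was not tested.

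COX1 held the 2 C that rose most. Position 7162, in a glycine codon, had 0.690% and 0.621% in wild type and 1.92% in both knockout libraries. Position 7132, 10 codons before it, had 0.598% and 0.583% against 1.62% and 1.60%. Their log2 changes without centring were 1.42 and 1.31 (limma adjusted p = 8.3e-05 and 8.5e-05), and 2.05 and 1.94 with centring. The next was ND4L position 10669, 3 codons after position 10660, with 0.263% and 0.252% against 0.570% and 0.610%, a log2 change of 0.95 (limma adjusted p = 0.00096). All 3 stood in wild type below 1.47%, the level under which 10% of wobble C lay. Positions 7162 and 7132 lay there between the background means of wobble G (0.432%) and wobble T (1.02%), and position 10669 lay below both. In the knockout position 10669 was near the wobble G mean of 0.546%. The part of the background in these rises was not tested either.

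ND4 held all 3 A and 2 of the 3 C that fell most. Position 11547, the A of a valine codon, had 11.7% and 12.2% in wild type against 1.95% and 1.89%, which is -2.58 on the uncentred log2 scale (limma adjusted p = 1.3e-05). Position 11946 went from 3.25% and 3.13% to 0.644% and 0.641% (-2.15, limma adjusted p = 1.6e-05), and position 11961, in a leucine codon 5 codons further on, from 2.92% and 2.99% to 0.708% and 0.729% (-1.90, limma adjusted p = 1.9e-05). The groups lay far apart at each of the 3.

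Of the C, position 11634 of ND4 went from 5.86% and 5.90% to 0.770% and 0.863% (-2.71, limma adjusted p = 1.4e-05), and position 11787, in an isoleucine codon, from 7.30% and 7.28% to 1.21% and 1.14% (-2.54, limma adjusted p = 1.3e-05). In ATP6 position 9182 went from 13.3% and 14.0% to 2.16% and 2.29% (-2.57, limma adjusted p = 1.3e-05). Each of these 3 C is followed by another C, as the sequences of positions 11634 and 9182 show, and both of those close an AGC serine codon. RNAplfold gave position 11634 an unpaired probability of 0.115 and position 9182 one of 0.187, where wobble C under 0.2 averaged 1.73% in wild type.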

How the data were processed

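Mismatch fractions at every position of both strands were deposited by the authors, with a second column that adds deletions, per the file headers. Bowtie2 and cutadapt are named in the submitters' processing notes. Versions, filters, coverage minimum and build are not given in the sources used here. Positions with a mean over the 4 libraries above 0.3 were left out. For limma tests of positions a lower limit of 0.002 was added, which the codon rows did not have. For both, log2(fraction + 0.001) was centred on each library's median over the 9910 tested A and C, as the main scaling. Folds on this scale understate changes of low positions. Gene pairs needed 5 positions per codon base and codon rows 10.

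Tests were limma 3.58.1 in R 4.3.3 (lmFit and eBayes, with a trend for positions and codons), two-sided, adjusted by Benjamini-Hochberg over the whole table, and checked on simulated data. They measure only the spread between these libraries. Replicate numbers are shared by the groups but nothing links the libraries, so no pairing was used. RNAplfold 2.7.2 ran with a window of 240, a span of 160 and 37 °C. Biopython 1.88 read the codons, matplotlib 3.10.9 drew the plots, and pandas 2.3.3 with numpy 2.4.6 on Python 3.11.15 did the rest.

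Members, lists and tests were chosen with earlier results of these data known. Named were, for each base, the 2 mRNAs highest and lowest in wild-type contrast and in its change, the 3 wobble bases highest in wild type and the 3 that rose and fell most with centring, and the 3 highest and lowest codons with at least 20 wobble bases. AGC, GAC, AUC and CUC were added after their values were seen. Alternatives were pseudocounts, limits, deletions, scalings, matching, a replicate block and leaving out each library.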

Additional observations from a re-analysis of the deposited data

Results flagged for a closer look

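In 5 mRNAs the third-base contrast differed between wild type and knockout by the limma test against both first and second bases, in the same direction, which is 5 of the 24 sets of mRNA and base. ATP6, COX1 and COX2 at C were called against both in opposite directions. Of all 30 sets in the table, 20.0% were called in 1 direction against both: ND6 at C, with 0.094 and 0.083 (limma adjusted p = 0.016 and 0.020), was the other, and of the 4 rRNA sets 0 were by limma after adjustment and 1 (RNR2 at A) at an unadjusted p under 0.05. The change of the contrast, knockout minus wild type on the log2 scale, was -0.058 for A in ATP6, -0.059 for A in ND4, 0.093 for A in ND4L, 0.040 for A in ND5 and 0.086 for C in ATP8. In each of the 5 the 2 wild-type libraries lay on one side of the 2 knockout libraries. With 2 libraries a group, no library could be examined as standing apart from its own group.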

How the results depend on the processing

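Leaving out 1 library kept the levels within 2.93% to 2.96% (A) and 4.10% to 4.15% (C) in wild type. Leaving out 1 library gave 5 to 11 higher and 5 to 8 lower third-base pairs, against 12 and 12. Nothing links libraries of the same replicate number, and the correlation of their deviations was 0.00070, which with 2 pairs cannot decide on pairing. With a replicate block 13 pairs were higher and 11 lower, and 836 wobble A were higher and 642 wobble C lower at single positions. No wobble-base count moved by 1.5 times with this block.

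Wobble A stood at 2.96% (wild type) and 2.15% (knockout) with a lower limit of 0.002, 3.19% and 2.30% with deletions, and 3.09% and 2.28% with no upper limit. Wobble C was 4.25% and 2.50% with deletions, 4.07% and 2.42% with an upper limit of 0.1, and 4.30% and 2.61% with no upper limit.

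For wild type and knockout in turn, the A contrast was 0.0066 and -0.00034 with pseudocount 0.01, -0.034 and -0.035 with deletions, 0.019 and 0.012 with a lower limit of 0.002, 0.0083 and 0.0028 with positions pooled, 0.044 and 0.0092 with matched neighbours (change -0.035), 0.10 and 0.073 with matched unpaired probability (change -0.029), and 0.037 and 0.019 as a ratio of means (change -0.017). With pseudocount 0.0001 it was -0.014 in the knockout. The sign of the A contrast changed between these settings. Both matched settings pooled positions as well, here and for C.

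The C contrast was -0.028 and -0.015 with pseudocount 0.01 (change 0.013), -0.032 and -0.016 with deletions, -0.041 and -0.021 with an upper limit of 0.1, -0.0115 and -0.0016 pooled (change 0.0099), -0.073 and -0.069 with matched neighbours (change 0.0036), 0.037 and 0.036 with matched unpaired probability (change -0.0011), and -0.0013 and -0.0085 as a ratio of means (change -0.0072). With a lower limit of 0.002 it was -0.022 in the knockout.

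The 4-fold minus 2-fold difference at A in wild type was -0.027 with pseudocount 0.01, -0.024 with deletions, -0.041 with an upper limit of 0.1 and -0.049 with a lower limit of 0.002. In the knockout it was 0.029 with deletions and 0.0053 with the lower limit, and its change was 0.037 with pseudocount 0.01. At C it was -0.57 and -0.61 with pseudocount 0.0001, -0.41 and -0.40 with 0.01 (change 0.0070), -0.59 and -0.62 with deletions, and -0.57 in the knockout with the lower limit.

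Without centring, 47 wobble A and 60 wobble C were higher and 1075 and 1390 lower, and of codons 0 wobble A and 0 wobble C were higher and 14 wobble A lower. Quantile normalization gave 9 higher wobble A codons, and pseudocount 0.01 gave 1 higher wobble C codon. The ND1 C change against second bases was 0.0030 with pseudocount 0.01 (limma adjusted p = 0.67). The cause was not tested for any of these. The 12 positions named as risen or fallen kept direction and call in all 154 alternatives run. For named pairs 141 alternatives kept both, 16 lost the call, 2 gained it and 1 turned the sign. Unknown depth limits every value.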
